A study of Homo sapiens with 3 samples.

Results

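The genes that encode the proteasome and its helpers were examined for called positions of the transcription factor SP1 and of H3K27ac, the histone acetylation found at promoters and enhancers in use, in H1299 cells, an established human line of lung cancer cells that the labels call lung adenocarcinoma. Members were the protein-coding genes of RefSeq (GRCh38.p14) whose whole symbol is PSMA, PSMB, PSMC, PSMD, PSME, PSMF or PSMG followed by digits, and 48 of the 20037 protein-coding genes on the 24 chromosomes met this rule. The series holds 3 libraries made by CUT&RUN, in which antibody-tethered nuclease releases the DNA around a target for sequencing, and the labels name no treatment. There was 1 library with an antibody against SP1, 1 against H3K27ac and 1 with control IgG, and the IgG library was not analysed here.

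The proteasome degrades proteins that carry ubiquitin chains and so sets the turnover of cell cycle regulators, misfolded proteins and peptides for antigen presentation. Its core particle is a barrel of stacked rings, with alpha subunits (PSMA) on the outside and beta subunits (PSMB), some of them proteases, on the inside. A regulatory particle sits on the barrel. Its base holds the ring of ATPases (PSMC) that unfold substrates, and its lid holds the deubiquitinase PSMD14 and scaffold subunits. Other activators (PSME) can replace the regulatory particle, PSMF1 can inhibit the core, and dedicated chaperones (PSMG, PSMD5, PSMD9, PSMD10) help to assemble the complex. SP1 binds GC boxes, short GC-rich elements that are frequent in the promoters of housekeeping genes.

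The SP1 list held 5570 summits, each a single base at the top of a called peak, with scores from just over 3 to 268 (median 6.17), and the H3K27ac list held 3201, with scores from just over 3 to 275 (median 5.01). The score was read, from its range and the item names, as a significance on the −log10 scale, and whether of p or of q is not stated. Scores were compared only within a list. A gene end means either end of the gene's span, and a summit within 1000 bases of it was counted as lying there. With 1 library per antibody no value has a replicate, no test was made, and the intervals given with shares are exact 95% binomial intervals that cover counting error only. Read counts are not part of the files, so the depth is unknown. The labelled cell type could not be checked from these lists. SP1 was called at an end of 1 of 10 lung epithelial marker genes (NAPSA, score 6.69), near the 13.7% of all protein-coding genes, and at none of 7 markers of blood, stromal, endothelial, liver or nerve cells. H3K27ac was at no marker of either kind, where 0.848% of all protein-coding genes had it.

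The sequences upstream of 6 members are shown because the summits described next lie in or around them, or, for PSME1, because its partner gene PSME2 had the highest SP1 score while PSME1 had no summit. They are RefSeq promoter sequence (GRCh38.p14), 5′ to 3′ on the strand of the gene, and cover the 250 bases before the annotated start, or the part of them outside every protein-coding gene span. Capitals mark the GC box core GGGCGG on either strand.
PSMC3 (chr11:47426440-47426689, minus strand): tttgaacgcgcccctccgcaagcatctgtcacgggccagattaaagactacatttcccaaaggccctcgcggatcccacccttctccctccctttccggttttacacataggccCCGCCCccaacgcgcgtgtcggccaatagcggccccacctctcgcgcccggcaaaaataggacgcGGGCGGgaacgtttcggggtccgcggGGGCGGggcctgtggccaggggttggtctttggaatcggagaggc
PSMB9 (chr6:32853942-32854191, plus strand): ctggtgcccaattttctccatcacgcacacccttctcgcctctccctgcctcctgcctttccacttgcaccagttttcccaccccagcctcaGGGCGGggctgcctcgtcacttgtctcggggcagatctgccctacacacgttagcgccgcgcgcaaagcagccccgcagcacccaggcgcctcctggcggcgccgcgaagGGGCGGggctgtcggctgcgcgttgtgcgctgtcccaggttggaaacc
PSMG1 (chr21:39183515-39183701, minus strand): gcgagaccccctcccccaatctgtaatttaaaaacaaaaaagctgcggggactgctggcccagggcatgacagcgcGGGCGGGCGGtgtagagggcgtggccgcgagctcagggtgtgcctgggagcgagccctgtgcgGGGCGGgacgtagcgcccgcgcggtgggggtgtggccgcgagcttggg
PSMB2 (chr1:35641527-35641776, minus strand): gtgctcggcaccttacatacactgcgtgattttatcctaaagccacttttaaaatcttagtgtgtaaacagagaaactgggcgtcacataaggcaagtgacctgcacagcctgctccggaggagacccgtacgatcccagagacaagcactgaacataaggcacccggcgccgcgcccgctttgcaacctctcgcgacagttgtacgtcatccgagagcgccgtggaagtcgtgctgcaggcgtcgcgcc
PSME2 (chr14:24146611-24146860, minus strand): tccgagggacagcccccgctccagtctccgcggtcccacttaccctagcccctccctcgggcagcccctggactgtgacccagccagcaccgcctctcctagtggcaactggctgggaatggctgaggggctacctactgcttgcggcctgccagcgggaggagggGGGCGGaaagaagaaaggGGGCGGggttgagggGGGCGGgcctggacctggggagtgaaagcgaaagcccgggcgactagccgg
PSME1 (chr14:24135944-24136193, plus strand): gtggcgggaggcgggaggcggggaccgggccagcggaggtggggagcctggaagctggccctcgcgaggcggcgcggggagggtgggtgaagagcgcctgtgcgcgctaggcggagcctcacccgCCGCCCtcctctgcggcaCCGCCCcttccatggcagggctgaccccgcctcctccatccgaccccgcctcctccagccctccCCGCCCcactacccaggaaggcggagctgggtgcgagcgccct
In PSMC3 the 3 cores lay between its 2 SP1 summits. In PSMB9 the summit is base 19 of the run, and the nearest core lies 74 bases away. In PSMG1 the summit is base 9 and the nearest core, of 3 in the run, lies 68 bases away. The PSMB2 run holds its summit at base 76 and no core. PSME2 and PSME1 have 3 cores each, and the summit of PSME2, 576 bases upstream of its start, lies outside its run.

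SP1 summits lay at the ends of 13 of the 48 proteasome genes, or 27.1% (15.3 to 41.8), whereas 13.7% of all protein-coding genes had one. The share was thus 1.97 times that of all genes. The 13 came from every part of the complex and its helpers: 4 of 19 core particle genes, 3 of 9 base genes, 2 of 8 lid genes, 1 of 5 activator and inhibitor genes and 3 of 7 assembly-factor genes. H3K27ac was called at 1 member, PSMG2, or 2.08% (0.0527 to 11.1), against 0.848% of all protein-coding genes. No member had summits of both libraries at its ends, which 0.17% of all protein-coding genes had.

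**Figure D1:**
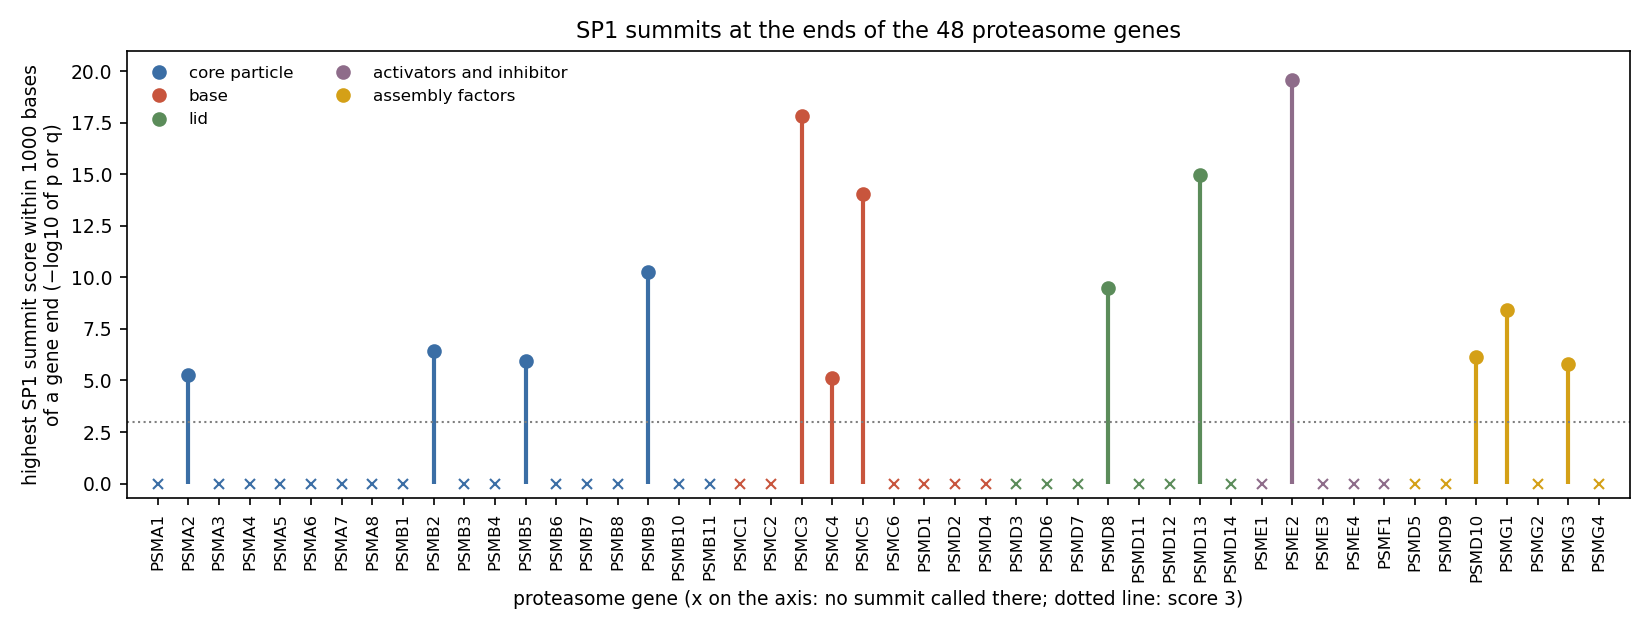
Highest SP1 summit score within 1000 bases of a gene end (vertical axis, −log10 of p or q) for each of the 48 proteasome genes (horizontal axis), coloured by role; crosses mark genes with no summit there, and the dotted line marks a score of 3. PSME2 stands highest at 19.6, followed by PSMC3 at 17.8, PSMD13 at 15.0 and PSMC5 at 14.1, and 35 genes have none.

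In the core particle, 1 of 8 alpha-ring genes (12.5%, 0.316 to 52.7) and 3 of 11 beta-ring genes (27.3%, 6.02 to 61.0) had an SP1 summit. Both intervals include the 13.7% of all protein-coding genes. PSMA2, an alpha subunit gene on chromosome 7 at 42916861 to 42932174, had a summit of score 5.26 at 42932026, which is 148 bases inside the gene from its start and ranked 3619 of 5570. PSMB2, a beta subunit gene without a protease site on chromosome 1 at 35599541 to 35641526, had 6.45 at 35641701, 175 bases upstream of its start. PSMB5, the chymotrypsin-like protease subunit that bortezomib inhibits, lies on chromosome 14 at 23025851 to 23035220. Its summit at 23035076 scored 5.96 and lay 144 bases inside the gene. The other constitutive protease subunits, PSMB6 and PSMB7, had none, and their nearest SP1 summits were 5889 and 243121 bases from an end. Of these 3 scores, that of PSMB2 lay just above the list median of 6.17 and the others below it.

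The highest core particle score was that of PSMB9, at 10.3. PSMB9, on chromosome 6 at 32854192 to 32859851, encodes an interferon-induced protease subunit that takes the place of PSMB6 in the immunoproteasome. Its summit, at 32853960, lay 232 bases upstream of PSMB9 and 256 bases from an end of TAP1, which encodes part of the transporter that carries peptides into the endoplasmic reticulum for antigen presentation. It ranked 1069, within the best 19.2% of the list. The other immunoproteasome genes had no summit at an end. PSMB8, in the same stretch of chromosome 6, had this same summit as its nearest, 9281 bases away, and for PSMB10 the nearest was 87794 bases away. The thymus-specific PSMB11 lay 7136 bases from the summit of PSMB5, and the testis-specific PSMA8 had a summit of 3.41 inside its span, 5873 bases from its start. The remaining core particle genes without a summit at an end were PSMA1, PSMA3, PSMA4, PSMA5, PSMA6, PSMA7, PSMB1, PSMB3 and PSMB4.

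In the base, all 3 genes with a summit encode ATPases, so 3 of the 6 ATPase genes had one, while the scaffold genes PSMD1 and PSMD2 and the ubiquitin receptor gene PSMD4 had none. The interval of the ATPase share, 50% (11.8 to 88.2), includes the 13.7% of all protein-coding genes. PSMC3, on chromosome 11 at 47418775 to 47426439, was the only one of the 48 with 2 SP1 summits at an end. They lay at 47426318, with a score of 10.4 at 121 bases inside the gene, and at 47426783, with a score of 17.8 at 344 bases upstream, which ranked 313. PSMC5, on chromosome 17 at 63827431 to 63832019, had 14.1 at 63827297, 134 bases upstream and 366 bases from an end of FTSJ3, an rRNA methyltransferase gene. PSMC4, on chromosome 19 at 39971165 to 39981764, had the lowest score of the 13, 5.12, at 39970874, 291 bases upstream. PSMC3 and PSMC5 thus stood in the upper quartile of the SP1 list (above 9.04) and PSMC4 did not.

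The ATPase gene PSMC6 lay just outside the window. Its nearest SP1 summit, at 52729859 on chromosome 14 with a score of 9.41, was 1269 bases beyond the far end of the gene and 307 bases from an end of STYX, a pseudophosphatase gene. Of the members inside the window, PSME2 was the farthest from its summit, at 576 bases. For PSMD2 the nearest summit was 5330 bases from an end, for PSMD4 it was 14337, and for PSMC1, PSMC2 and PSMD1 it was 56405, 272483 and 280683.

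In the lid, PSMD13 and PSMD8, both scaffold subunit genes, had SP1 summits, each in the upper quartile of the list. PSMD13, on chromosome 11 at 236976 to 252984, had a score of 15.0 at 236702, 274 bases upstream of its start and 229 bases from an end of SIRT3, a mitochondrial deacetylase gene. PSMD8, on chromosome 19 at 38374571 to 38383824, had 9.51 at 38374306, 265 bases upstream, with no other protein-coding gene end within 1000 bases of the summit. The deubiquitinase gene PSMD14 had none within 103766 bases of an end. The other lid genes without a summit were PSMD3, PSMD6, PSMD7, PSMD11 and PSMD12, of which PSMD7 had the nearest, at 18302 bases.

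Among the activators, PSME2 carried the highest SP1 score of all 48 members. PSME1 and PSME2 encode the subunits of one interferon-inducible ring that opens the core particle. PSME2 lies on chromosome 14 at 24143365 to 24146610, and its summit at 24147186 scored 19.6, ranked 247 (best 4.43%), and lay 576 bases upstream of PSME2 and 311 bases from an end of RNF31, a ubiquitin ligase gene. With 2 gene ends this close, the summit cannot be assigned to 1 of them from its position. PSME1, on the same chromosome at 24136194 to 24138962, had no summit nearer than this one, which was 8224 bases from its end. The upstream sequences of PSME1 and PSME2 hold 3 GC box cores each, and the PSME2 summit lies outside the sequence shown. PSME3, PSME4 and the inhibitor gene PSMF1 had nearest summits at 154791, 359677 and 569308 bases.

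Among the assembly factors, PSMG1 had the highest score at a gene end, 8.43. PSMG1 and PSMG2 pair in a chaperone of the alpha ring, and PSMG3 and PSMG4 in another. PSMG1 lies on chromosome 21 at 39174769 to 39183514, with its summit at 39183693, 179 bases beyond the span, 242 bases upstream of the annotated start and 483 bases from an end of BRWD1, a bromodomain gene. PSMG3, on chromosome 7 at 1567332 to 1570032, had 5.80 at 1570270, 238 bases from its high-coordinate end. The antisense gene PSMG3-AS1 has an end within 1000 bases of the same summit. PSMD10, which encodes the base chaperone gankyrin, lies on chromosome X at 108084207 to 108091542 and had 6.13 at 108091102, 440 bases inside the gene. PSMG4 had a summit of 9.98 on chromosome 6 at 3258749, which is 198 bases upstream of an annotated start inside the gene but 4345 bases from the nearer end of the span. It was therefore not among the 13. The base chaperone genes PSMD5 and PSMD9 had none at an end, and PSMD9 had a summit of 5.83 inside its span, 12496 bases from its start.

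**Figure D2:**
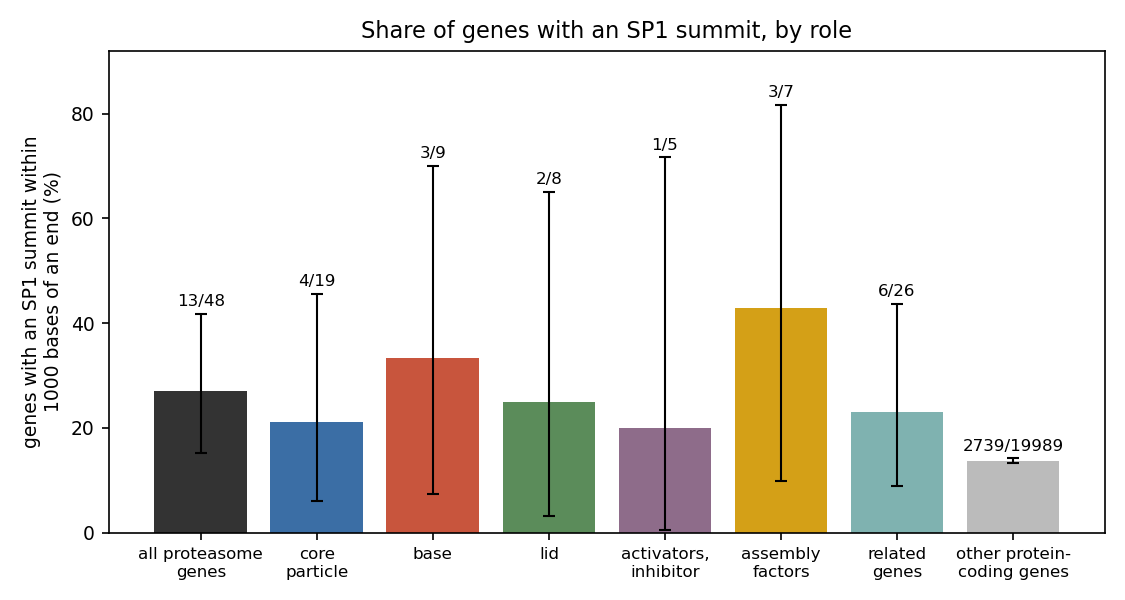
Percent of genes with an SP1 summit within 1000 bases of an end (bars) for all proteasome genes, for each role, for 26 related ubiquitin-proteasome genes and for the other protein-coding genes, with exact 95% binomial intervals and the counts above them. The roles lie between 20.0% and 42.9%, and the interval of every role includes the 13.7% of other genes and overlaps those of the other roles.

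The roles could not be ranked by their share or told apart singly from genes at large. The shares were 42.9% in assembly factors (9.90 to 81.6), 33.3% in the base (7.49 to 70.1), 25% in the lid (3.19 to 65.1), 21.1% in the core particle (6.05 to 45.6) and 20.0% in activators and inhibitor (0.505 to 71.6), and all these intervals include the 13.7% of all protein-coding genes. In the upper quartile of scores the share was 5.26% in the core particle and 0 of 7 in assembly factors, against 6.21% of all genes, and within 500 bases it was 0 of 5 in activators and inhibitor, against 11.4%. The 0 of 7 leaves out the PSMG4 summit of 9.98, which lies near an annotated start but not at an end of the span. Base and lid genes with a summit had median highest scores of 14.1 and 12.2, while core particle and assembly-factor genes had 6.20 and 6.13, on 2 to 4 genes each. Over the 13 members the median highest score was 8.43 (quartiles 5.96 and 14.1), against 8.56 (6.21 and 12.6) over all 2752 protein-coding genes with an SP1 summit. The members' share was thus above that of genes at large, while their median score was close to theirs. The count followed the call rule. Within 500 bases 12 members (25%) had an SP1 summit, against 11.4% of all protein-coding genes, and within 2500 bases 14 (29.2%), against 15.8%. With summits above the list median there were 8 (16.7%), against 10.4%, and in the upper quartile 6 (12.5%), against 6.21%. Within 1000 bases of an annotated start, for which 42 members and 15843 protein-coding genes have an entry, there were 13 members (31.0%), against 14.9%, with PSMG4 in place of PSMG3.

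The SP1 summits of members lay at gene starts. Strand was known for 12 of the 13 genes, and in all 12 the highest summit was nearer to the start of the span than to its far end, as in 94.3% of 2280 other genes with a summit and a known strand. It lay upstream of the start in 9 of the 12 (75%), compared with 55.8% of the other genes whose summit was at the start. The median distance from the start was 248.5 bases in the members and 265 bases in the others. None of the 12 lay within 100 bases of the start on either side, and 10.9% of the others did. Of the others, 2.0% lay in the 100 bases just upstream and 8.84% in the 100 bases just downstream. Between 100 and 400 bases upstream lay 8 of the 12 (66.7%) and 37.8% of the others, and between 100 and 200 bases downstream lay 2 (16.7%) and 17.5%. PSMC3 had a summit in each of these stretches. The stretches differ in width, and the members' shares rest on 12 genes. No interval was calculated for them, and the differences in position were not tested.

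**Figure D3:**
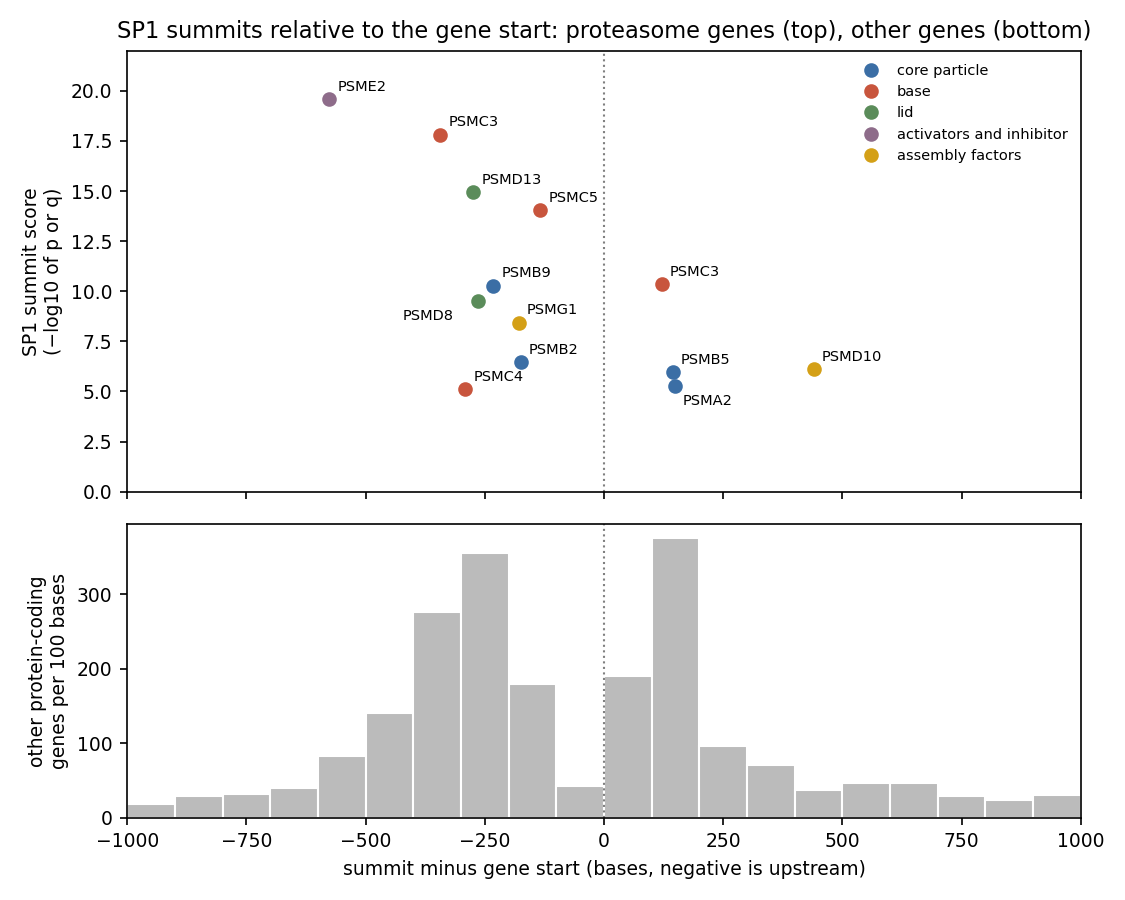
Position of SP1 summits relative to the start of the gene span (horizontal axis, bases, negative is upstream). The upper panel shows the 13 summits of 12 proteasome genes with known strand, with score on the vertical axis and role by colour, and the lower panel counts other protein-coding genes per 100 bases by their highest summit. The 100 bases just upstream hold 43 other genes and no member, and the 100 bases just downstream hold 190 other genes and no member.

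GC box cores were frequent just upstream of the start. Of 42 members with a promoter entry (250 bases before to 50 after the annotated start, taken at the start nearest to the span end), 28 held GGGCGG on either strand, or 66.7% (50.5 to 80.4), against 58.3% of the promoters of other protein-coding genes. Of the 58 cores in members' promoters, 56.9% were centred within 100 bases upstream of the start, as were 52.7% of the 23006 in other promoters. Counted over the same 300 bases, this stretch held none of the 4 highest summits of members and 43 of the 430 of other genes. Starts here are annotated starts, and for a few genes, such as PSMG1, they differ from the end of the span used for summits.

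The relation of GC box cores to summits in the members depended on how cores were counted. At least 1 core was found in 8 of 12 promoters with an SP1 summit at an end and in 20 of 30 without, 66.7% in each, while among other genes the shares were 78.5% with a summit and 54.9% without. PSMG4, with 3 cores, counts here as without, though a summit lies 198 bases upstream of its annotated start. The equality of the members' shares depends on this placing. At least 2 cores were found in 58.3% of members with a summit and in 36.7% without, compared with 53.4% and 33.8% of other genes. Read the other way, 28.6% of members with a core and 28.6% of members without one had a summit, against 19.4% and 7.46% of other genes. PSMB2, PSMB5, PSMD8 and PSMD10 had a summit and no core in the promoter window, while PSME4, with 4 cores, had no summit. The longer form GGGGCGGGG, whose matches all contain GGGCGG, was in 23.8% of members' promoters and in 22.1% of the others. By summit it was in 33.3% of members with one and 20.0% without, compared with 36.8% and 19.6% of other genes. With 12 and 30 members these shares have wide intervals, such as 9.92 to 65.1 for the 33.3%.

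Other elements were searched in the same promoters on both strands, and their matches can share bases with a GC box. CCAAT, the element of the factor NF-Y, was in 9 of the 12 members with a summit (75%) and in 10 of the 30 without (33.3%), against 43.6% and 35.2% of other genes. The members' intervals, 42.8 to 94.5 and 17.3 to 52.8, overlap, and the difference was not tested. At least 2 matches went the other way, in 0 of the 12 and 5 of the 30 (16.7%). In other genes these shares were 19.0% and 11.4%. TGACNNNGC, the core of the antioxidant response element, through which NFE2L1 is known to raise proteasome genes, was in 31.0% of the 42 members and in 14.3% of other promoters. It was found in 4 of 12 members with a summit (33.3%) and in 9 of 30 without (30.0%). The G and C content of the window had a median of 61.7% in members with a summit and 62.0% in members without, and 65.0% and 62.0% in the corresponding other genes. These counts describe letters and not bound sites.

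The share with an SP1 summit was larger for genes with a close neighbour, in members and in genes at large. Of 19 members with another protein-coding gene end within 1000 bases, 7 had an SP1 summit (36.8%), and of 29 without, 6 had one (20.7%). In other genes the shares were 23.9% of 5691 and 9.66% of 14298. The members' share was the larger number in either class, but it rests on 7 and 6 genes with a summit. No interval was calculated, and neither this difference nor that between the classes was tested. A summit within 1000 bases of the ends of neighbouring genes counts for each of them, so the classes are not independent of the counting rule. In 6 of the 13 (46.2%) the summit also lay within 1000 bases of another protein-coding gene's end, compared with 39.3% of other genes with a summit. These neighbours were MRPL32, a mitochondrial ribosomal protein gene, at PSMA2, and TAP1, FTSJ3, SIRT3, RNF31 and BRWD1 as given above.

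For the 35 members with no SP1 summit at an end, the nearest lay between 1269 bases (PSMC6) and 1119915 bases (PSMA4) from an end, with a median of 63.6 kb, against 129 kb for other genes without a summit at an end. It was over 10 kb away for 27 of them (77.1%), against 90.2% of those other genes. Over all 48 members the median distance was 16.5 kb, against 89.0 kb for other protein-coding genes, and 68.8% of members and 52.1% of others had a summit within 100 kb. Summits inside a member's span but away from its ends and annotated starts were found in PSMA8, PSMD9, PSMG2 (4.34) and PSMB2 (4.01). These 4 also lay in regions of the authors' ranked SP1 list, which is labelled enhancers, at ranks 2294, 2208, 2166 and 428 of 2356. None of the summits at the members' ends lay in such a region. The share of all SP1 summits at gene ends that lie in ranked regions was not counted. How that list treated summits near gene starts is not stated in the sources used here. Whether the absence is particular to the members or set by how the list was made is therefore unknown.

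H3K27ac was called at the start of PSMG2. The summit at 12658881 on chromosome 18, with a score of 6.93 and rank 302 of 3201, lay 143 bases inside the gene (12658738 to 12725740). No SP1 summit was called there, and the nearest lay 47756 bases away, in the same gene. PSMB2 was just outside the window, with an H3K27ac summit of 4.42 at 35640456, 1070 bases inside the gene and 1245 bases from its SP1 summit. Within 2500 bases H3K27ac was thus at 2 members, or 4.17%, against 1.49% of all protein-coding genes. All other members had their nearest H3K27ac summit over 10 kb from an end, and the median over all 48 was 269 kb, compared with 321 kb for other protein-coding genes. No member's end or span met a region of the authors' ranked H3K27ac list, also labelled enhancers. The share of all genes that meet one was not counted, and how the list treated summits near gene starts is not stated. What this absence means for the members is therefore unknown. At the other 12 genes with an SP1 summit, the nearest H3K27ac summit was at least 74285 bases from it (PSMC5). The files hold called positions and not coverage, so acetylation below the calling threshold cannot be seen. The list placed H3K27ac at the ends of only 170 of 20037 protein-coding genes. Its absence at a member therefore does not show that acetylation was lacking there.

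**Figure D4:**
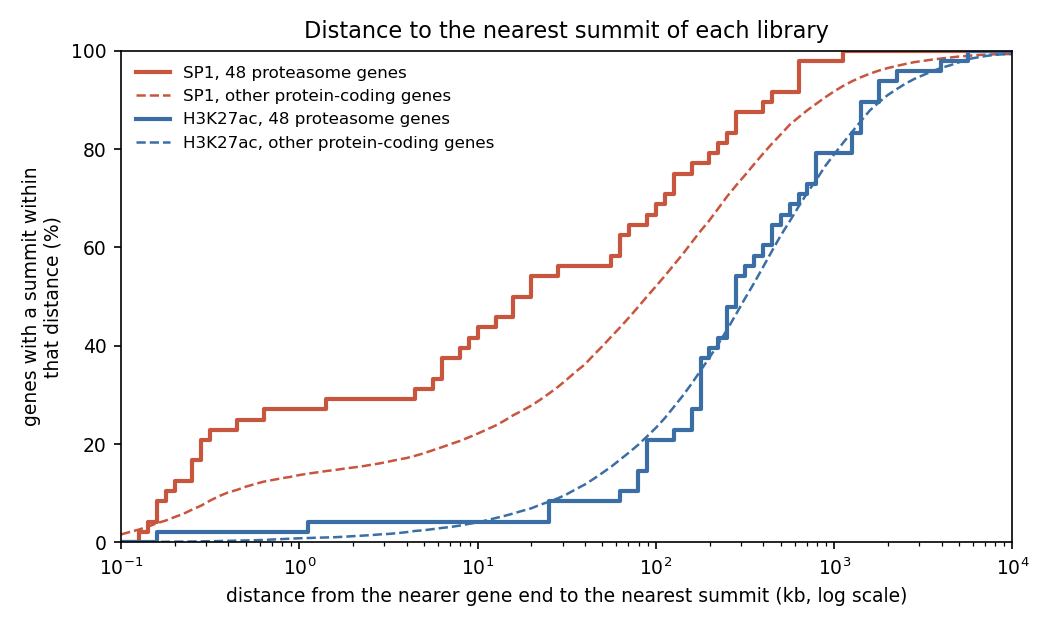
Percent of genes (vertical axis) with a summit within a given distance of the nearer gene end (horizontal axis, kb, log scale), for SP1 and H3K27ac, with solid lines for the 48 proteasome genes and dashed lines for other protein-coding genes. From 0.1413 kb the SP1 line of the proteasome genes runs above that of other genes, at 68.8% and 52.1% within 100 kb. At 0.1 kb it lies below that of other genes. For H3K27ac the shares within 100 kb are 20.8% and 23.3%.

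Of 26 related genes of the ubiquitin-proteasome system that are not members, 6 carried SP1 at an end, or 23.1% (8.97 to 43.6), an interval that includes the 13.7% of all protein-coding genes. None had an H3K27ac summit, which 0.848% of all genes had. NFE2L1, the transcription factor that raises proteasome genes when proteasome activity falls, had the highest score, 13.3, at 136 bases from an end. DDI2, the protease that releases active NFE2L1, had 6.86 at 426 bases. ZFAND5, which stimulates the proteasome, had 9.05 at 400 bases. PAAF1, which binds the ATPases, had 6.41 at 2 bases. The ubiquitin shuttle genes UBQLN4 and UBQLN1 had 7.01 and 3.90, at 670 and 154 bases. The proteasome subunit genes outside the naming rule, ADRM1 and SEM1, had none, nor did the core assembly factor gene POMP, the deubiquitinase genes UCHL5 and USP14, or the activating enzyme genes UBA1 and UBA6.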

How the data were processed

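CUT&RUN libraries of H1299 cells were used, 1 for SP1 and 1 for H3K27ac. The submitters' processing notes name hg38, cutadapt 2.5 and deepTools 3.4.1, with no role; the peak caller is not given in the sources used here, nor are its control and settings. The deposited summit lists hold a score per summit, read as −log10 of p or q (a p-value or q-value) from its range and the item names. The authors' region lists, labelled enhancers, hold a rank and no signal. The depth is unknown.

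Genes and promoters were those of RefSeq (GRCh38.p14). All 48 members have a span, 42 a promoter entry, and strand and annotated starts come from those entries. The genes in the text follow a naming rule: every member, related genes with a summit, and neighbours that share a summit. The related genes named without a summit were chosen after their values were seen, and some genes of that list are not reported here by name. Roles, members and lists were chosen with earlier results of these data known. The CCAAT and TGACNNNGC searches and the neighbour classes were added after seeing the data. Counts were made over all 20037 protein-coding genes with Python 3.11.15, pandas 2.3.3 and scipy 1.17.1 and tested on simulated data: all of 200 summits planted within 1000 bases of an end were counted, and none of 200 planted outside it. Coordinates are 1-based.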

Additional observations from a re-analysis of the deposited data

How the results depend on the processing

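No paired analysis was possible because the series has no replicate libraries. Of 52 alternative results, 41 stayed within 1.5 times the main count (for the median score, within the members' quartiles; for the GC box share, within its interval) and 11 moved. With SP1 summits above the list median, 8 members had a summit, 2 of them core particle and 1 assembly-factor genes. In the upper quartile 6 did, with 1 core particle gene, 0 assembly-factor genes and 2 related genes. Within 500 bases, 0 activator and inhibitor genes were left, since the summit of PSME2 lies beyond, and within 2500 bases H3K27ac was at 2 members. The GC box share was 23.8% with GGGGCGGGG and 42.9% with at least 2 matches. Stricter scores, narrower windows and longer motifs lower a count by construction. What depth limits cannot be said, since it is unknown.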
